A study of Homo sapiens with 10 samples.

Results

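The genes described here encode the proteasome and the proteins that cap, inhibit and assemble it. They were taken by symbol, as every annotated gene whose name starts with PSMA, PSMB, PSMC, PSMD, PSME, PSMF or PSMG followed by a digit, leaving out PSMB9. Apart from detection, no measured value entered that rule. Of 42 such genes, 39 were detected on at least 1 of 10 arrays, out of 10601 detected genes in all. The core particle was represented by 16 detected genes of 18, and the regulatory particle by 13 of 13. The others were 2 of 3 chaperones of the regulatory particle, 4 of 4 activator caps, the inhibitor PSMF1 and 3 chaperones that help to assemble the core. PSMA8, PSMB11 and PSMD9 were detected on 0 of 10 arrays, and PSMC5, PSMD7, PSMD12, PSMD13 and PSMG4 were not analysed here. PSMC3IP and PSME3IP1 have matching names but encode no subunit and were set apart.

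The proteasome is the barrel-shaped protease that degrades proteins tagged with ubiquitin. Its core particle stacks rings of alpha subunits, which gate the entry, on rings of beta subunits, some of which carry the proteolytic sites. The regulatory particle caps the core, where its PSMC ATPases unfold substrates and its PSMD subunits bind and remove ubiquitin, and PSME proteins form other caps.

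RNA was measured in MDA-MB-435, an established human melanoma line, on 10 bead arrays, with 2 arrays for each of 5 groups that the series text calls biological duplicates. One group was transduced with ITGB4, the integrin beta chain of hemidesmosomes, one was left untreated, and the remaining groups received hepatocyte growth factor (HGF), the ligand of the MET receptor, for 1 h, 6 h or 24 h. All groups grew under standard conditions. The vector, the number of clones of the ITGB4 line and the HGF dose are not stated in the sources used here, and the untreated cells serve as reference for the transduced line and for every time point.

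The transduced gene matched its label: ITGB4 cells gave signals of 6788 and 5023, while the 8 remaining arrays gave 59.6 to 63.9 and did not detect it. MET ranged only from 78.5 to 112.1, around the detection limit of 89.6, and was detected on 6 of 10 arrays. Between 10226 and 11899 probes (42.4% to 49.4%) were detected per array. Among melanocyte lineage markers 7 of 8 were detected, against 2 of 7 epithelial (KRT8 and KRT18), 1 of 4 immune (PTPRC) and 2 of 5 fibroblast markers (DCN and THY1). PTPRC and THY1 were detected on only 5 of 10 arrays each, with low log2 signals of 6.38 to 6.62 and 6.19 to 7.06. Replicate 1 of the untreated and of each HGF group stood apart, with a 25th percentile of the detection score among undetected probes of 0.000114 to 0.00353, against 0.055 to 0.217 on the other 6 arrays. The 4 are called low-score and the other 6 high-score arrays below. The split is called the score set, and no background intensity was measured for it. This grouping came from the detection scores once the files had been read, and results are given within each set where it matters.

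Signals are mean bead brightness, quantile normalised between arrays and given as log2, so that a log2 difference of 1 is a doubling in signal. Each gene is shown by its brightest detected probe, and levels were not compared between genes. A gene was called where limma's moderated two-sided test gave a Benjamini-Hochberg adjusted p under 0.05 over all 14018 detected probes. These are bulk samples, in which fewer cells with a transcript and less of it per cell cannot be told apart.

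The calls among the proteasome genes lay between HGF time points. At 24 h compared with 6 h, 5 of the 39 genes fell and 0 rose, where 8.31% of all detected probes were called, 4.07% lower and 4.24% higher. An unadjusted p under 0.05 was found for 12 of the 39, where 21.3% of all probes had one. The genes were PSMA3, an alpha ring subunit, PSMD14, the deubiquitinase of the regulatory particle, PSMD5, a chaperone of its base, PSME3, the REG gamma activator of nuclear proteasomes, and PSMG3, a core assembly chaperone. At 6 h compared with 1 h, PSMA3 and PSMC6, an ATPase of the regulatory particle, rose and 0 fell, where 4.67% of all probes were called, 2.24% higher and 2.43% lower. An unadjusted p under 0.05 was found for 9 of the 39, where 20.5% of all probes had one. Both comparisons share the 6 h arrays, so they are not independent of each other.

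The log2 signal of PSMA3 was 10.76 and 10.42 in ITGB4 cells, 10.60 and 10.61 in untreated cells, 9.81 and 10.28 after 1 h of HGF, 10.92 and 10.79 after 6 h, and 10.14 and 10.02 after 24 h. Both 6 h arrays lay above every other array, and the 1 h and 24 h arrays lay below every untreated and ITGB4 array. At 6 h PSMA3 was 1.76-fold its 1 h level (log2 difference 0.81 ± 0.19 SE, adjusted p = 0.029, limma, n = 2 arrays each). At 24 h it was 0.585-fold its 6 h level (log2 difference -0.77 ± 0.19, adjusted p = 0.022 by limma).

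PSMC6 had log2 signals of 10.25 and 10.06 in ITGB4 cells, 10.28 and 10.32 in untreated cells, 9.59 and 10.14 after 1 h of HGF, 10.73 and 10.60 after 6 h, and 10.32 and 9.91 after 24 h. The 6 h arrays were again the highest of the 10, and HGF 1 h replicate 1 was the lowest. The difference of 6 h over 1 h was 0.80 ± 0.20 on the log2 scale (adjusted p = 0.042, limma). That of 24 h over 6 h was -0.54 ± 0.20 and did not pass (adjusted p = 0.12, limma).

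PSMD14 had log2 signals of 11.25 and 10.94 in ITGB4 cells, 11.43 and 11.32 in untreated cells, 11.03 and 11.32 after 1 h, 11.66 and 11.60 after 6 h, and 11.15 and 10.79 after 24 h. PSMD5 had 7.83 and 7.77 in ITGB4 cells, 8.01 and 7.83 in untreated cells, 7.86 and 7.91 after 1 h, 8.41 and 8.16 after 6 h, and 7.78 and 7.52 after 24 h. For both genes the 6 h arrays were the highest and a 24 h array, replicate 2, was the lowest of the 10. The log2 difference of 24 h over 6 h was -0.66 ± 0.18 for PSMD14 (adjusted p = 0.041, limma) and -0.64 ± 0.17 for PSMD5 (adjusted p = 0.032, limma).

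PSME3 had log2 signals of 8.85 and 8.58 in ITGB4 cells, 8.47 and 8.58 in untreated cells, 9.02 and 8.57 after 1 h, 9.06 and 9.02 after 6 h, and 8.10 and 8.38 after 24 h. Both 24 h arrays lay below all others, while HGF 1 h replicate 1 reached the lower of the 6 h arrays. PSMG3 had 9.24 and 9.17 in ITGB4 cells, 9.00 and 9.24 in untreated cells, 9.31 and 9.22 after 1 h, 9.68 and 9.58 after 6 h, and 8.88 and 9.12 after 24 h. For PSMG3 the 6 h arrays stood above all others and the 24 h arrays overlapped the untreated ones. The log2 difference of 24 h over 6 h was -0.80 ± 0.19 for PSME3 (adjusted p = 0.019, limma) and -0.63 ± 0.16 for PSMG3 (adjusted p = 0.030, limma).

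These calls rest on few arrays. Each of the 7 was lost when arrays were scaled to a common median in place of quantile normalisation. That scaling still called 686 of all 14018 probes at 6 h over 1 h and 934 at 24 h over 6 h. Quantile normalisation called 654 and 1165. Each of the 7 was also lost with an ordinary pooled-variance test, which called 0 of all probes at 6 h over 1 h and 107 at 24 h over 6 h. Without either 6 h array 0 genes were called in both comparisons, where the probes called in all fell to 47 and 75 at 6 h over 1 h and to 446 and 308 at 24 h over 6 h, for replicate 1 and replicate 2. Without HGF 1 h replicate 1, 0 of 13863 probes were called at 6 h over 1 h, the proteasome genes included. With the score set as a term in the fit, 10 genes were lower at 24 h than at 6 h (15.4% of all probes called). They were the same 5 with PSMC1, PSMC3, PSMC4, PSMD1 and PSMD11. In that fit 4 genes were higher at 6 h than at 1 h (12.1% of all probes called), which were PSMA3, PSMC1, PSMC6 and PSMD1.

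**Figure D1:**
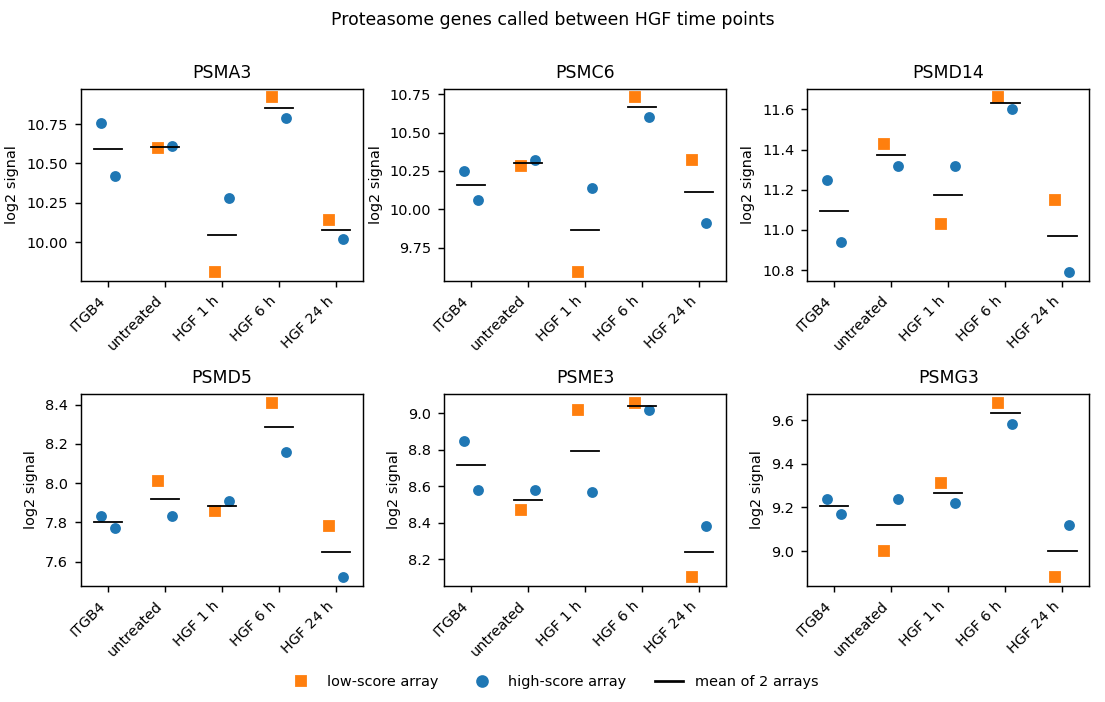
Log2 signal (vertical axis, 1 panel per gene) of the 6 proteasome genes called between HGF time points, by group, with 1 point per array, orange squares for low-score and blue circles for high-score arrays and a black line at the mean of 2 arrays. In PSMA3, PSMC6, PSMD14, PSMD5 and PSMG3 both HGF 6 h arrays lie above all 8 others, and in PSME3 both HGF 24 h arrays lie below all others.

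Promoters are shown for the genes called between time points, with matches to 4 motifs in capitals. A promoter of 250 bases before to 50 bases after the start was listed for 33 of the 39 genes (RefSeq, GRCh38.p14), and not for PSMA7, PSMB1, PSMB6, PSMB7, PSMD4 and PSMG3. The motifs, searched on both strands, were TGACNNNGC (the core of the antioxidant response element, bound by NFE2L1 and NFE2L2), CCAAT (the CCAAT box), CCGGAAG (an ETS factor core) and the core of the interferon-stimulated response element (GAAA, a pair of any bases, and GAAA again). Below are the 150 bases before the start, 5′ to 3′ on the strand of the gene, of PSMA3 (chr14:58244693-58244842, plus strand), PSMC6 (chr14:52707050-52707199, plus), PSMD14 (chr2:161308275-161308424, plus), PSMD5 (chr9:120842923-120843072, minus) and PSME3 (chr17:42833247-42833396, plus).
PSMA3: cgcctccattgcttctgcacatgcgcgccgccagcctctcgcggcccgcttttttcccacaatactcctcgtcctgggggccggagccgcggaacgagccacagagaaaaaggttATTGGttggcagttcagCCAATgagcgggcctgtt
PSMC6: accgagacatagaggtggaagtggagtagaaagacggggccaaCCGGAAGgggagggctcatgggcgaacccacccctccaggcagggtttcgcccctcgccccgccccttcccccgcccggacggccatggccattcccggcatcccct
PSMD14: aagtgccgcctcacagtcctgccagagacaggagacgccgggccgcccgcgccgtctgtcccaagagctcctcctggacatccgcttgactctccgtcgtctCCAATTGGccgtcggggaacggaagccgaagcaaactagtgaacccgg
PSMD5: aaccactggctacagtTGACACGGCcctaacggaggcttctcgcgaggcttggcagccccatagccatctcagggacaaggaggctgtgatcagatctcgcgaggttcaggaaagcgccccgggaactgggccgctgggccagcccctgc
PSME3: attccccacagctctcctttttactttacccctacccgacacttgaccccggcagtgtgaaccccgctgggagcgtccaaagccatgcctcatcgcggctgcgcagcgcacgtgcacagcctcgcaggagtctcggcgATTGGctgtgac
PSMA3 holds a pair of separate CCAAT boxes in opposite orientation within this stretch. PSMD14 holds 1 short palindrome that reads as a CCAAT box on each strand, so its matches overlap. PSME3 holds 1 CCAAT box, PSMC6 an ETS core and PSMD5 an antioxidant core. PSMD14 also has a CCGGAAG match that spans the start and is not drawn in full. A match is a stretch of letters and not a shown binding site.

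Over the 33 genes with a promoter, TGACNNNGC was present in 11 (33.3%), against 16.1% of 27305 genes and 19.6% of 8718 detected genes with a promoter listed. It was present in only 2 of 12 core genes and 3 of 12 regulatory particle genes. The others with it were the caps and chaperones PSMD5, PSME1, PSME2, PSME4, PSMG1 and PSMG2. CCAAT was present in 16 (48.5%), against 39.7% and 44.1%, in 7 of 12 core genes and 6 of 12 regulatory particle genes. CCGGAAG was present in 9 (27.3%), against 12.2% and 21.8%, in 6 of 12 regulatory particle genes and 1 of 12 core genes. The interferon element core was present in 6 (18.2%), against 4.38% and 3.85%, which were PSMA4, PSMB4, PSMB8, PSMB10, PSME1 and PSME2. These shares are descriptions and were not tested.

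The regulatory particle had its highest median at 6 h. After 6 h of HGF all 13 of its genes taken by symbol had log2 differences from untreated cells above 0. These were 0.15 to 0.68 with a median of 0.37, where the median over all detected probes was 0.01 and 52.4% lay above 0. SEM1 and ADRM1, which lie outside the symbol rule, are given with the partners below. In 10 of the 13 both HGF arrays lay above both untreated arrays and in 0 below, where 20.7% of all probes lay above and 23.9% below. The core particle had a median of 0.16 with 14 of 16 genes above 0 and a range of -0.05 to 0.33, and in 9 of 16 both HGF arrays lay above both untreated ones. None of the 39 genes was called (limma; 1.9% of all probes were, 0.97% higher), and 6 had an unadjusted p under 0.05, where 16% of all probes did.

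Within the regulatory particle the 5 ATPase ring genes had a median difference of 0.41 at 6 h and the 8 non-ATPase genes one of 0.27. PSMC4, an ATPase, had the largest difference, with log2 signals of 11.49 and 11.61 after 6 h of HGF, against 10.86 and 10.87 in untreated cells. That is 1.61-fold (log2 difference 0.68 ± 0.18, adjusted p = 0.074, limma), with groups that do not overlap. A second probe for 1 PSMC4 isoform gave 0.84 ± 0.22 (adjusted p = 0.068, limma). With the score set in the fit PSMC4 was called (0.68 ± 0.15), as was PSMG3 (0.51 ± 0.14), where 7.6% of all probes were called.

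PSMC1, another ATPase, had log2 signals of 12.47 and 12.69 after 6 h, against 12.13 and 12.14 in untreated cells, a difference of 0.44 ± 0.16 (adjusted p = 0.18, limma). PSMD11, a lid subunit, had 12.20 and 12.40 after 6 h, against 11.71 and 12.03 in untreated cells, a difference of 0.43 ± 0.20 (adjusted p = 0.31, limma). In both genes the groups do not overlap, yet the difference did not pass. For PSMD4, the ubiquitin receptor, the arrays overlapped, at 8.61 and 8.97 after 6 h and 8.35 and 8.91 in untreated cells.

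The 6 h median of the regulatory particle lay between 0.22 and 0.44 when 1 array was left out in turn. It was 0.33 within the low-score arrays and 0.28 within the high-score arrays, with 13 of 13 genes above 0 in both. With median scaling it was 0.21 with 12 of 13 genes above 0, where the median of all probes was -0.07, and in the authors' value table it was 0.55, where that of all probes was 0.16. For the core particle these scalings gave 0.07 and 0.38. The median of both particles kept its sign under each scaling while its size moved. On the same arrays the 7 detected melanocyte markers had a median 6 h difference of -0.49 with 0 of 7 above 0, and their part in these values was not tested.

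**Figure D2:**
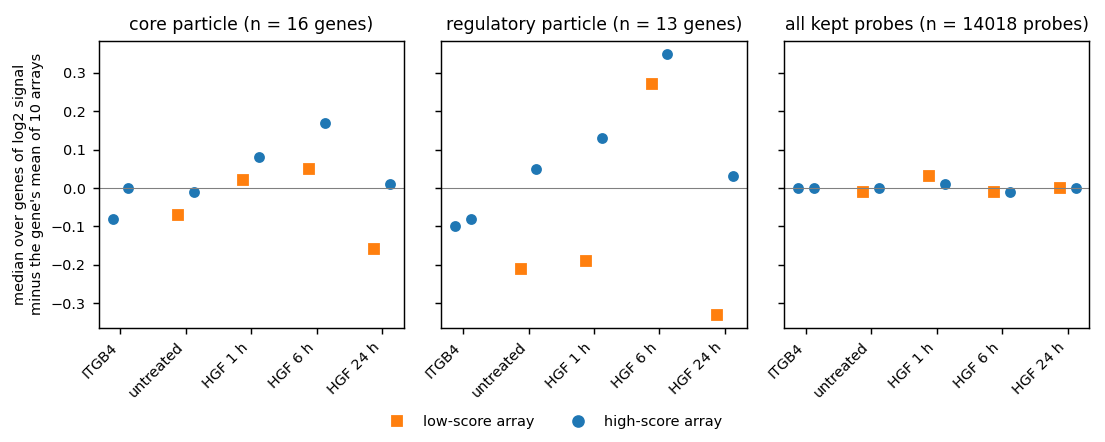
Median over genes of the log2 signal minus the mean of the 10 arrays for that gene (vertical axis), by group, for the core particle (16 genes), the regulatory particle (13 genes) and all 14018 kept probes, with 1 point per array, orange squares for low-score and blue circles for high-score arrays. The regulatory particle reached 0.27 and 0.35 on the HGF 6 h arrays, and all kept probes stayed within 0.03 of 0 on every array.

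Relative to the 10-array mean, the median of the regulatory particle was -0.10 and -0.08 in ITGB4 cells, -0.21 and 0.05 in untreated cells, -0.19 and 0.13 after 1 h of HGF, 0.27 and 0.35 after 6 h, and -0.33 and 0.03 after 24 h. Both 6 h arrays were higher than every other array. In the untreated and each HGF group the low-score array was the lower one. The SD within groups was 0.18 for the regulatory particle and 0.08 for the core particle.

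At 24 h compared with 6 h all 13 regulatory particle genes were below 0, with a median of -0.43, and 14 of 16 core genes, with a median of -0.21, where the median of all probes was 0 and 49.3% lay above 0. Both 24 h arrays lay below both 6 h arrays for 9 of 13 regulatory and 10 of 16 core genes, where 20.3% of all probes did. All 7 alpha ring genes were among them (differences of -0.77 to -0.20). Within the low-score arrays the regulatory median was -0.49 with 0 of 13 genes above 0, and within the high-score arrays -0.36 with 3 of 13 above 0. With median scaling it was -0.34 with 10 of 13 below 0, and in the value table -0.56 with 13 of 13 below 0, where the medians of all probes were 0.04 and -0.08. The core median was smaller in several settings, at -0.06 with 5 of 16 above 0 without HGF 24 h replicate 1, -0.14 with 4 of 16 above 0 without HGF 6 h replicate 2, -0.08 with median scaling, and -0.11 with 4 of 16 above 0 within the high-score arrays.

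PSMD1, a scaffold of the base, had log2 signals of 8.55 and 9.11 after 24 h, against 9.49 and 9.60 after 6 h, a difference of -0.72 ± 0.22 that did not pass (adjusted p = 0.063, limma). PSMD2, its partner scaffold, had 9.21 and 10.22 after 24 h, against 9.70 and 9.90 after 6 h, and the arrays overlapped. The 24 h duplicates lay far apart for several genes, with an SD of 0.71 for PSMD2, 0.54 for PSMC3 and 0.63 for PSMB2.

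A few genes ran the other way. PSMD10, known as gankyrin, a chaperone of the regulatory particle, had log2 signals of 9.82 and 9.88 after 6 h of HGF, against 10.36 and 10.16 in untreated cells (difference -0.41 ± 0.18, adjusted p = 0.27, limma). A second PSMD10 probe gave -0.43 ± 0.17 (adjusted p = 0.23, limma). PSME1, a subunit of the 11S cap, had 11.43 and 11.46 after 6 h, against 11.67 and 11.74 in untreated cells (difference -0.26 ± 0.17, adjusted p = 0.52, limma). At 24 h compared with 6 h PSMD10, PSME1, PSMG2 and PSMB8 were the 4 genes with both 24 h arrays above both 6 h arrays, by 0.20 to 0.40, where 22.5% of all probes were, and none passed.

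**Figure D3:**
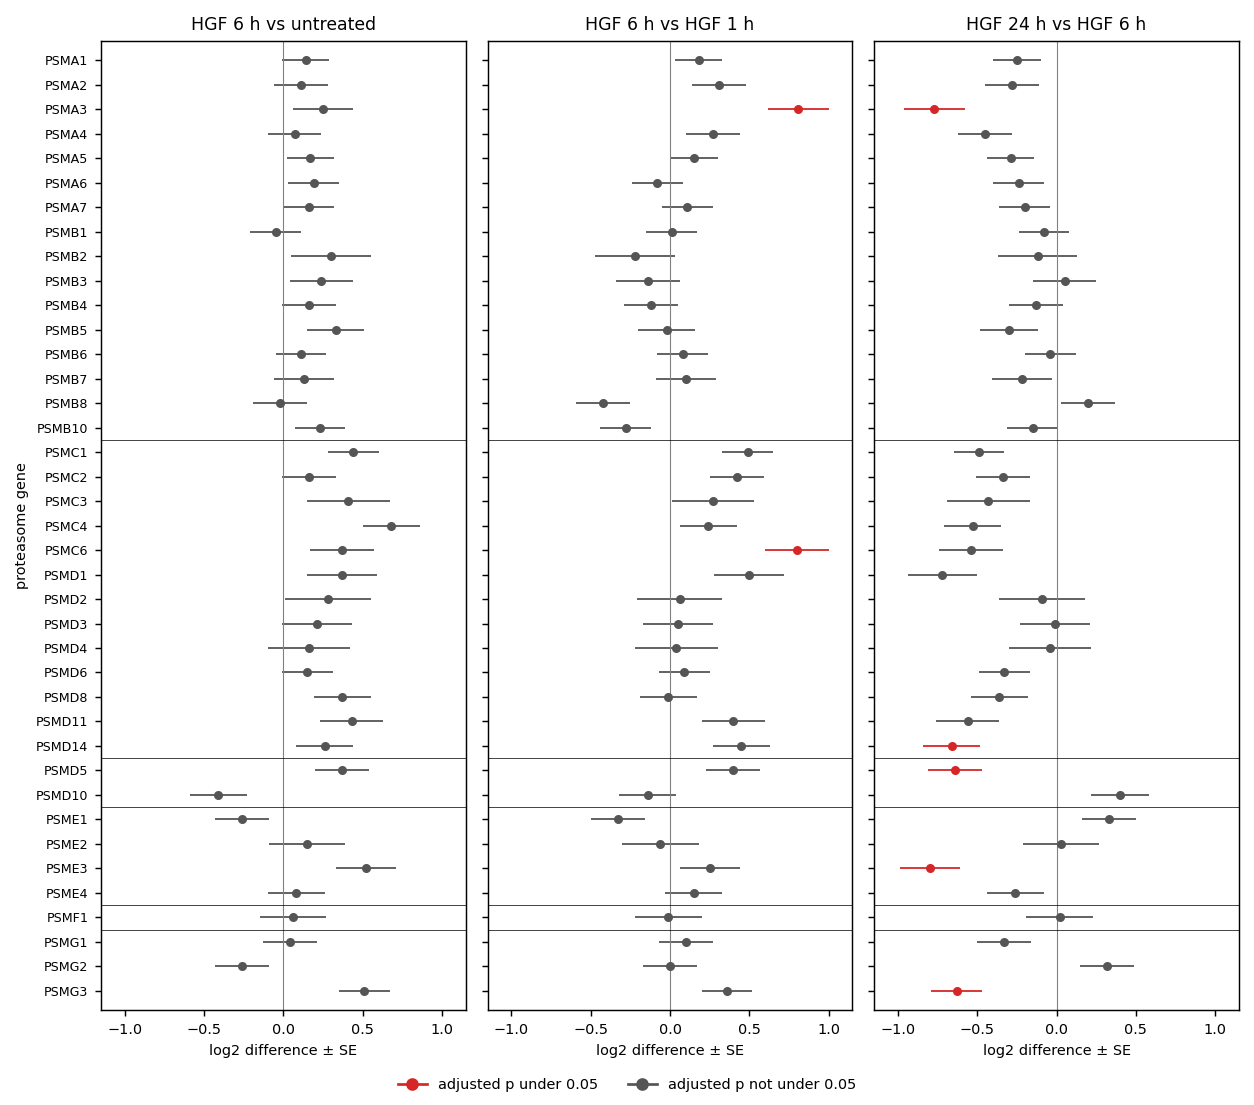
Log2 difference with its SE (horizontal axis) of each of the 39 proteasome genes (rows, core particle at the top, then regulatory particle, its chaperones, activators, inhibitor and core chaperones) for HGF 6 h over untreated, HGF 6 h over HGF 1 h and HGF 24 h over HGF 6 h. Red marks an adjusted p under 0.05, reached by PSMA3 and PSMC6 at 6 h over 1 h and by PSMA3, PSMD14, PSMD5, PSME3 and PSMG3 at 24 h over 6 h.

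At 6 h compared with 1 h the regulatory particle had a median of 0.27 with 12 of 13 genes above 0, and the ATPase ring one of 0.42 with 5 of 5, where 49.1% of all probes lay above 0. For 7 of the 13 genes both 6 h arrays lay above both 1 h arrays and for 0 below, where 22.7% and 25.9% of all probes did. The core particle median was 0.05, and it turned to -0.20 with median scaling, where that of the regulatory particle was 0.10 with 9 of 13 above 0. The regulatory median was 0.51 without HGF 1 h replicate 2 and 0.18, with 8 of 13 above 0, without HGF 6 h replicate 2. Within the low-score arrays it was 0.24 and within the high-score arrays 0.28, with 11 of 13 genes above 0 in both.

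The proteolytic beta subunits were described separately because some are exchanged in the immunoproteasome, the form that interferon induces for antigen presentation. PSMB5, PSMB6 and PSMB7 carry the constitutive sites and PSMB8 and PSMB10 replace PSMB5 and PSMB7. PSMB5 had log2 signals of 10.02 and 10.17 in ITGB4 cells, 10.16 and 10.15 in untreated cells, 10.61 and 10.40 after 1 h, 10.45 and 10.51 after 6 h, and 9.95 and 10.41 after 24 h. Its 1 h and 6 h arrays lay above the untreated arrays, with differences of 0.35 ± 0.18 and 0.33 ± 0.18 that did not pass (adjusted p = 0.42 and 0.41, limma). PSMB6 lay between 11.80 and 12.08 and PSMB7 between 12.32 and 12.82 over all arrays, with overlapping groups in each contrast with untreated cells.

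PSMB8 had log2 signals of 8.85 and 9.11 in ITGB4 cells, 9.05 and 8.99 in untreated cells, 9.54 and 9.28 after 1 h, 8.98 and 9.01 after 6 h, and 9.12 and 9.27 after 24 h. PSMB10 had 8.95 and 9.14 in ITGB4 cells, 9.11 and 9.00 in untreated cells, 9.63 and 9.52 after 1 h, 9.29 and 9.30 after 6 h, and 9.04 and 9.24 after 24 h. By these probes both genes were highest on the 1 h arrays, where they lay above both untreated arrays, by 0.39 ± 0.17 for PSMB8 (adjusted p = 0.32, limma) and 0.52 ± 0.16 for PSMB10 (adjusted p = 0.21, limma). The PSMB8 isoform probes differed at 1 h, with 0.55 ± 0.16 and no overlap for one and 0.04 ± 0.22 and overlapping arrays for the other. A PSMB8 isoform probe was lower at 6 h than at 1 h (-0.67 ± 0.16, adjusted p = 0.034, limma), while the brightest PSMB8 probe gave -0.42 ± 0.17 (adjusted p = 0.17, limma) and another isoform probe -0.13 ± 0.22 (adjusted p = 0.84, limma). The PSMB8 probes thus disagreed on the call. The interferon element in the 60 bases before the start is shown in capitals for PSMB10 (chr16:67936851-67936910, minus strand) and for PSME2, a subunit of the 11S cap (chr14:24146611-24146670, minus strand), since both are known interferon targets.
PSMB10: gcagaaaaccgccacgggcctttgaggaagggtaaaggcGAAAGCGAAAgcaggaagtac
PSME2: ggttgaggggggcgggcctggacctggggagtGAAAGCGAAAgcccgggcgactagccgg
PSME2 did not differ beyond its spread, with log2 signals of 9.19 and 9.44 in ITGB4 cells, 8.83 and 9.40 in untreated cells, 9.09 and 9.57 after 1 h, 9.09 and 9.44 after 6 h, and 9.09 and 9.51 after 24 h.

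After 1 h of HGF 0 of 39 genes were called against untreated cells (limma; 0% of all probes), and 4 had an unadjusted p under 0.05, where 13.5% of all probes did. The core particle had a median of 0.04 with 11 of 16 genes above 0 and a range of -0.57 to 0.52, and the regulatory particle one of 0.06 with 8 of 13 above 0 and a range of -0.43 to 0.44, where 57% of all probes lay above 0. The regulatory median turned to -0.09 with 5 of 13 above 0 without HGF 1 h replicate 2, and to -0.05 with 4 of 13 above 0 without untreated replicate 1. The core median was 0.23 with median scaling and 0.26 under the scaling of the authors, while that of all probes stayed at 0.03 and 0.04. In 10 of the 39 genes both HGF arrays lay above both untreated arrays and in 6 below, where 24.1% and 20.1% of all probes did.

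PSMB2, a beta ring subunit, had log2 signals of 10.29 and 10.30 after 1 h, against 9.62 and 9.93 in untreated cells (difference 0.52 ± 0.25, adjusted p = 0.39, limma). PSMA3 had a difference of -0.57 ± 0.19 (adjusted p = 0.24, limma) and PSMC6 had a difference of -0.43 ± 0.20 (adjusted p = 0.37, limma). In both, HGF 1 h replicate 1, a low-score array, lay furthest from the untreated arrays. Leaving out 1 array in turn gave -0.80 to -0.33 for PSMA3 and -0.70 to -0.16 for PSMC6.

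After 24 h of HGF 0 of 39 genes were called against untreated cells (limma; 0% of all probes), and 3 had an unadjusted p under 0.05, where 5.71% of all probes did. The core and regulatory medians were both -0.04 and were 0.08 and 0.04 under the authors' own scaling, where the median of all probes was 0.06. Without HGF 24 h replicate 1 they were 0.03 and 0.09. With quantile normalisation and brightest probes, the alpha ring had 0 of 7 genes above 0, where 52.8% of all probes were. In 6 of them both HGF arrays lay below both untreated arrays, where 14.7% of all probes lay below. Its differences ran from -0.53 ± 0.19 for PSMA3 (adjusted p = 0.86, limma) to -0.04 ± 0.16 for PSMA7 (adjusted p = 0.99, limma). Under the authors' scaling 12 of 16 core genes lay above 0 and only 4 below, so not all 7 alpha ring genes kept that sign. A second PSMA1 probe had log2 signals of 8.98 and 9.35 after 24 h, against 8.87 and 9.03 in untreated cells. PSMD14 had a difference of -0.41 ± 0.18 (adjusted p = 0.86, limma), and PSMB8, at 0.18 ± 0.17 (adjusted p = 0.94, limma), was the 1 gene of the 39 with both HGF arrays above both untreated arrays, where 14.9% of all probes were.

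In ITGB4 cells 0 of 39 genes were called against untreated cells (limma; 0.00713% of all probes, the ITGB4 probe alone), and 0 had an unadjusted p under 0.05, where 0.835% of all probes did. Differences ran from -0.28 to 0.20, with medians of -0.01 for the core and 0 for the regulatory particle. Both ITGB4 arrays are high-score arrays, while 1 of the 2 untreated arrays is low-score. With the score set in the fit the regulatory median was -0.14 with 11 of 13 genes below 0. In that fit the core median was -0.03 with 12 of 16 below 0, PSMF1 had -0.34 ± 0.14, and 0 of 39 genes were called. Set against only untreated replicate 2, the high-score one, the regulatory median was -0.08 with 4 of 13 above 0 and the core median -0.02 with 5 of 16 above 0, where 49.6% of all probes lay above 0. Both ITGB4 arrays lay above both untreated arrays for 2 genes, PSME3 (0.19 ± 0.19) and PSMC4 (0.14 ± 0.18), and below for 7, where 13.6% and 12.1% of all probes did. The lowest were PSMD14 (-0.28 ± 0.18, 95% interval -0.68 to 0.11) and PSMD6, a lid subunit (-0.18 ± 0.16, 95% interval -0.51 to 0.16). A test over all groups against untreated cells (limma's F test) called 0 of 39 genes, where it called 2.49% of all probes, and 9 had an unadjusted p under 0.05, where 18.7% of all probes did. With PSMA3 the smallest adjusted p of that test was 0.066.

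**Figure D4:**
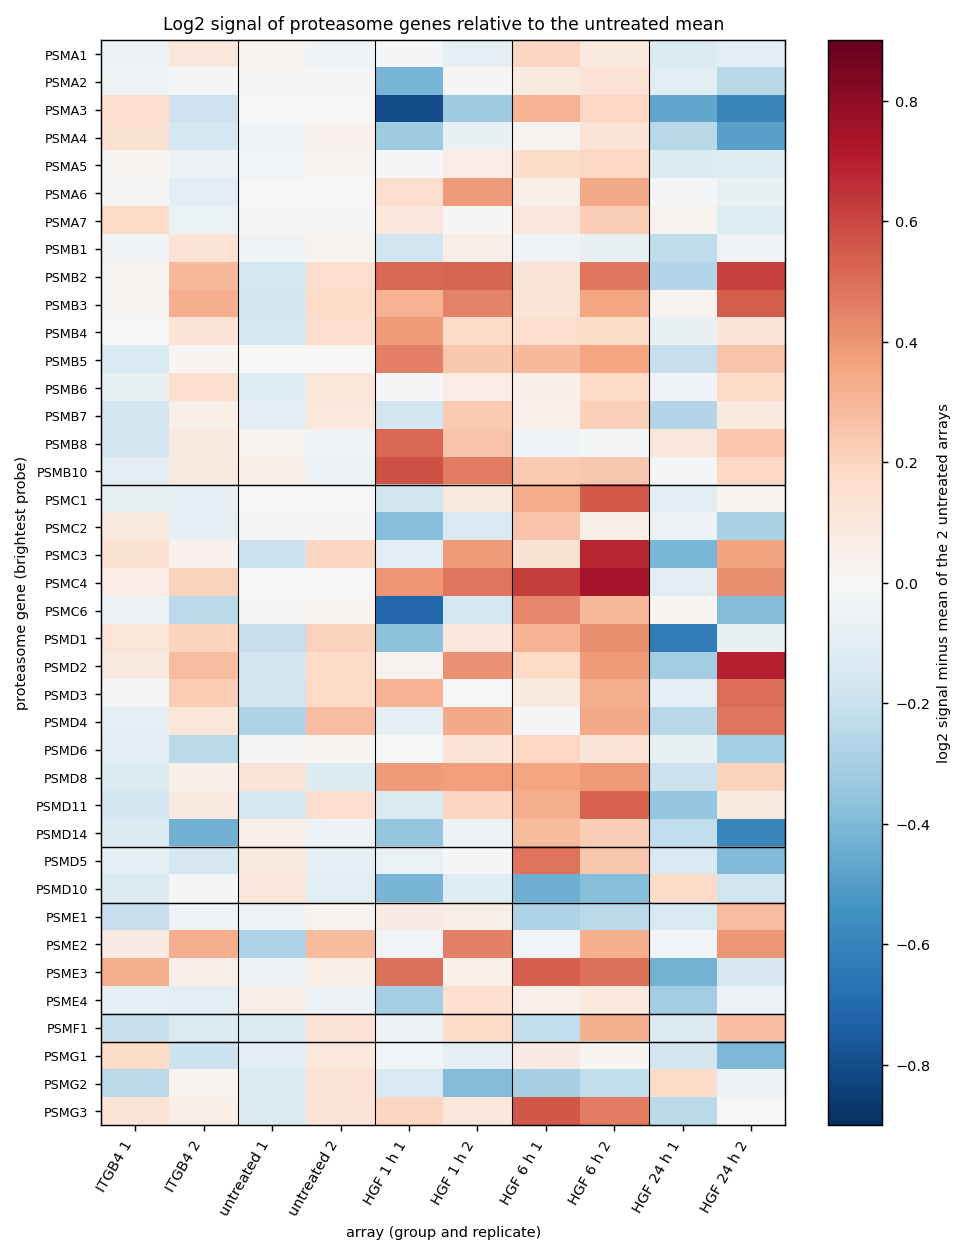
Log2 signal of the 39 proteasome genes (rows, grouped by role) on the 10 arrays (columns) minus the mean of the 2 untreated arrays, in colour. In the HGF 6 h columns the mean of the 2 arrays is above 0 for all 13 regulatory particle genes, and the 24 h replicates differ from each other in colour for PSMB2, PSMC3 and PSMD2.

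Among the other alpha ring genes, PSMA4 had log2 signals of 9.96 and 9.66 in ITGB4 cells, 9.78 and 9.86 in untreated cells, 9.50 and 9.75 after 1 h, 9.85 and 9.94 after 6 h, and 9.57 and 9.33 after 24 h. Its 24 h arrays lay below every untreated, 6 h and ITGB4 array, and the difference of 24 h over 6 h was -0.45 ± 0.17 (adjusted p = 0.14, limma). PSMA5 had 10.83 and 10.84 after 24 h, against 11.12 and 11.14 after 6 h, a narrow spread within each group but a difference of -0.29 ± 0.15 that did not pass (adjusted p = 0.29, limma). PSMA6 was highest at 1 h and 6 h, with 11.79 and 12.01 after 1 h and 11.68 and 11.97 after 6 h, against 11.63 on both untreated arrays.

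Of the beta ring genes without a proteolytic site, PSMB1 stayed within 12.58 to 12.94 over all arrays and PSMB4 within 11.18 to 11.72. PSMB3 had log2 signals of 10.99 and 11.12 after 1 h of HGF, against 10.50 and 10.85 in untreated cells, a difference of 0.38 ± 0.20 (adjusted p = 0.45, limma). Its 24 h duplicates, at 10.71 and 11.22, overlapped the untreated arrays. The ATPase PSMC2 had 10.65 and 10.89 after 1 h and 11.29 and 11.09 after 6 h, against 11.04 and 11.02 in untreated cells, so that its 1 h arrays lay below and its 6 h arrays above. PSMD8, a lid subunit, had 10.34 and 10.33 after 1 h and 10.31 and 10.34 after 6 h, against 10.08 and 9.83 in untreated cells, with differences of 0.38 ± 0.18 and 0.37 ± 0.18 (adjusted p = 0.37 and 0.33, limma).

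The remaining caps and chaperones did not move as a block. PSME4, the PA200 activator, lay between 9.24 and 9.70 over all arrays and PSMF1, an inhibitor that was detected on 8 of 10 arrays near the limit, between 6.42 and 6.96. PSMG1 and PSMG2, which form a dimer that assembles the alpha ring, had 6 h differences from untreated cells of 0.04 ± 0.17 and -0.26 ± 0.17 (adjusted p = 0.95 and 0.55, limma). PSMG3 had 0.51 ± 0.16 (adjusted p = 0.13, limma). An isoform probe of PSMA1 gave 0.52 ± 0.19 at 6 h (adjusted p = 0.19, limma), while its brightest probe gave 0.14 ± 0.15.

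Partners of the proteasome outside the symbol rule behaved unevenly. Of 16 listed partners and regulators, 14 were measured, with a median 6 h difference from untreated cells of 0.01 and 7 of 14 above 0, where 52.4% of all probes were, and 0 were called there, where 1.9% of all probes were. Between 24 h and 6 h, where 8.31% of all probes were called, 2 of the 14 were. POMP, the core maturation protein, had log2 signals of 9.98 and 9.75 after 24 h, against 10.85 and 10.46 after 6 h, and fell by 0.79 (adjusted p = 0.020, limma). PAAF1, a proteasomal ATPase binding protein, had 9.42 and 9.69 after 24 h, against 8.80 and 8.60 after 6 h, and rose by 0.86 (adjusted p = 0.012, limma). At 6 h compared with 1 h PAAF1 fell by 0.91 (adjusted p = 0.017, limma). The log2 signal of ADRM1, a ubiquitin receptor of the regulatory particle, was 11.17 and 11.07 after 6 h, against 10.24 and 10.60 in untreated cells, a difference of 0.70 that did not pass (adjusted p = 0.092, limma). SEM1, another protein of that particle, was flat, with 11.47 and 11.43 after 6 h, against 11.42 and 11.45 in untreated cells (difference 0.02).

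Of 23 listed ubiquitin and shuttle factors 16 were measured, with a median 6 h difference of 0.07, 10 of 16 above 0 and 0 called, against the same shares of all probes. At 24 h over 6 h 3 of the 16 were called, and at 6 h over 1 h 1 of the 16, where 4.67% of all probes were. At 24 h compared with 6 h RAD23B, a shuttle receptor, fell by 0.52 (adjusted p = 0.048, limma) and UBE3C, a ligase that binds the proteasome, fell by 0.78 (adjusted p = 0.015, limma). UBE4B, a ubiquitin chain ligase, was higher by 0.60 at 24 h than at 6 h and fell by 0.66 at 6 h compared with 1 h (adjusted p = 0.048, limma). No other member of either list was called between time points, and in both lists 0 were called in ITGB4 cells or at 1 h or 24 h against untreated cells.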

How the data were processed

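The measurements came from 10 Illumina Human-8 V1 arrays, with RNA of MDA-MB-435 cells. The authors deposited 1 scanner table per array, exported from BeadStudio (version 1.5.1.3 in the submitters' processing notes), whose intensity is the mean bead brightness of a probe on a linear scale, with neither background subtraction nor normalisation. The deposited tables also hold a detection score from 0 to 1 and, as a measure of another kind, the number of beads. The authors also deposited a value table of background-subtracted, rank-invariant normalised intensities, used as an alternative. For that use its values under 18.8 were raised to 18.8 before log2, so its medians of differences depend on this floor. A straight line of the scanner intensities gave 9 of its 10 columns, but not that of ITGB4 replicate 2 (Spearman 0.968), and its scale beyond this is unknown. Column medians were 11.6 to 22.7.

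Of 24136 probes, 22 control probes and 9 without a signal on an array were set aside. Intensities were quantile normalised and brought to log2 with no offset. A probe was kept with a detection score of 0.99 or more on at least 1 array (14018 probes, 58.2%). Symbols came from the platform annotation, updated by Entrez number through RefSeq, since the scanner tables name probes only. The files state no genome build, and promoters come from RefSeq (GRCh38.p14). limma 3.58.1 (R 4.3.3) fitted the 5 group means to all 10 arrays at once (5 residual and 8.16 prior degrees of freedom), with 6 contrasts, Benjamini-Hochberg adjusted over the kept probes. The script was tested on simulated data. The number of arrays limits the precision. The p-values set a difference against the spread between duplicates, pooled over the 5 groups and moderated towards that of all kept probes.

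The genes named were those called in any contrast, the 2 largest rises and falls without overlap in each contrast with untreated cells, PSMB5, PSMB6, PSMB7, PSMB8, PSMB10, PSMD4 and PSMD14, and the gene of the widest range in each particle. Other genes named singly and the members of small groups were named after their values were seen. The members and lists (ubiquitin and shuttle factors, partners and regulators, antigen processing, lysosome and autophagy, and markers of melanocyte, epithelial, immune and fibroblast cells) were chosen with earlier results of these data known. Alternatives were another background correction, scaling, offset, detection filter, probe rule and test, a replicate or score set block, and leaving out each array.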

Additional observations from a re-analysis of the deposited data

Results flagged for a closer look

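In 7 cases a proteasome gene differed between HGF time points by a direct test of 1 time point against another (limma, adjusted p under 0.05). PSMA3 was higher at 6 h than at 1 h by 0.81 on the log2 scale and PSMC6 by 0.80, with both 6 h arrays above both 1 h arrays. At 24 h compared with 6 h the log2 difference was -0.77 for PSMA3, -0.64 for PSMD5, -0.66 for PSMD14, -0.80 for PSME3 and -0.63 for PSMG3, with both 24 h arrays below both 6 h arrays in each. Each of these 7 involves the same 2 arrays of HGF 6 h. Groups of 2 arrays are too small for a check of single outlying arrays.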

How the results depend on the processing

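The sign was checked for the log2 differences that were called or were the largest rises and falls without overlap. Of these, 0 changed sign under the alternatives run, although 49 such results lost and 5 gained significance. They were chosen as calls or by size and non-overlap in the same data, so a kept sign was likely in advance. PSMB5, PSMB6, PSMB7 and PSMD4 were not part of this check. Of the alternatives that change the scaling, median scaling left 0 genes called at 6 h over 1 h and 0 at 24 h over 6 h. It called 686 and 934 of all 14018 probes there, against 654 and 1165 with quantile normalisation. Its core particle medians were 0.23 at 1 h and 0.07 at 6 h over untreated cells. The value table gave 1 and 8 calls in these comparisons, where 601 and 1190 of 14017 probes were called. It gave core medians of 0.26 at 1 h, 0.38 at 6 h and 0.08 at 24 h, and a regulatory median of 0.55 at 6 h. An ordinary pooled-variance test called 0 in both comparisons of time points, where 0 and 107 of all probes were called. Adding 50 before log2 called 1 gene at 6 h over untreated cells, 3 at 6 h over 1 h and 6 at 24 h over 6 h. Of all probes 391, 864 and 1347 were called there. PSMC1 was added in both comparisons of time points, and 1 gene was called by the F test. No detection filter left 1 at 6 h over 1 h and 4 at 24 h over 6 h, without PSMD14. With no filter 502 and 1056 of 24105 probes were called there. Detection on both arrays of a group called 6 at 24 h over 6 h, PSMD1 being added, and 1 by the F test. With that filter 1415 of 11565 probes were called at 24 h over 6 h. A block on the score set gave 2 calls at 6 h over untreated cells, 4 at 6 h over 1 h, 10 at 24 h over 6 h and 6 by the F test. In the first 3 of these comparisons 1066, 1690 and 2163 of all 14018 probes were called. The cause of these changes was not tested.

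Same-numbered arrays share a number in the labels, with no statement of a shared batch. Their deviations from the group means correlated above 0.1 in 8 of 10 pairs of groups (-0.06 to 0.66), highest among untreated, 6 h and 24 h (0.59 to 0.66). Replicate 1 is also the low-score array of the untreated and HGF groups, so number and score set cannot be told apart there. Since 2 pairs fell short, the numbers were not taken as a pairing. With a replicate block the calls were 2 at 6 h over untreated cells, 4 at 6 h over 1 h, 9 at 24 h over 6 h and 8 by the F test, and calls over all probes rose as well, to 1089, 1871 and 2245 of 14018, against 267, 654 and 1165 without the block. At 1 h over untreated cells 427 probes were called, against 0 without it.

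Leaving out 1 array in turn gave 0 to 1 calls at 6 h over untreated cells, 0 to 2 at 6 h over 1 h, 0 to 5 at 24 h over 6 h and 0 to 1 by the F test. Calls at 24 h over 6 h dropped to 0 without either HGF 6 h array and to 3 without either ITGB4 array or HGF 24 h replicate 1. Calls at 6 h over 1 h dropped to 0 without HGF 1 h replicate 1 or either HGF 6 h array, and to 1, PSMA3, without either untreated or either ITGB4 array. Core medians ranged from 0.03 to 0.13 at 1 h, 0.11 to 0.20 at 6 h, -0.11 to 0.03 at 24 h and -0.02 to 0.07 in ITGB4 cells. Regulatory medians ranged from -0.09 to 0.19 at 1 h, 0.22 to 0.44 at 6 h, -0.20 to 0.09 at 24 h and -0.07 to 0.12 in ITGB4 cells. In the value table the median of all probes at 6 h was itself 0.16 above untreated cells. PSMF1 lay near the detection limit.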

Other observations

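The lysosome and autophagy list, the other route of protein degradation in the cell, had a 6 h median of -0.21 against untreated cells with 2 of 16 genes above 0, where the median of all probes was 0.01. It was -0.27 with 2 of 16 above 0 within the low-score arrays and -0.18 with 6 of 16 within the high-score arrays. GABARAPL1, an ATG8 family protein of the autophagosome, had log2 signals of 7.20 and 7.16 after 6 h of HGF, against 8.39 and 8.18 in untreated cells, and fell by 1.10 (adjusted p = 0.016, limma). NBR1, an autophagy receptor, had 8.16 and 8.07 after 6 h, against 9.18 and 8.92 in untreated cells, and fell by 0.94 (adjusted p = 0.027, limma). These were the 2 of 16 genes called there, where 1.9% of all probes were. At 24 h compared with 6 h GABARAPL1 rose by 1.41 (adjusted p = 0.0014), NBR1 by 1.14 (adjusted p = 0.0036) and ULK1, the kinase that starts autophagy, by 1.02 (adjusted p = 0.0039, limma for each). They were the 3 of 16 called in that comparison, where 8.31% of all probes were. At 6 h compared with 1 h GABARAPL1 and NBR1 fell by 1.36 and 0.78 (adjusted p = 0.0061 and 0.032, limma), where 4.67% of all probes were called. SQSTM1, also an autophagy receptor, had a 6 h difference from untreated cells of 0.63 that did not pass (adjusted p = 0.082, limma).

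Of the antigen processing list 10 of 13 genes were measured, with a 6 h median of -0.09 against untreated cells. IRF1, an interferon-responsive factor, had log2 signals of 7.78 and 7.87 after 6 h, against 7.16 and 6.98 in untreated cells. It rose by 0.76 (adjusted p = 0.046, limma) and was the 1 member called in any contrast, where 1.9% of all probes were called at 6 h. TAP1, a peptide transporter, had a difference of 0.52 after 1 h and 0.01 after 6 h. The 7 detected melanocyte markers had a 6 h median of -0.49 against untreated cells with 0 of 7 above 0, and MITF, the lineage factor, fell by 1.06 (adjusted p = 0.036, limma). With an ordinary pooled-variance test 0 of 14018 probes were called at 6 h over untreated cells. The 6 h calls of GABARAPL1, NBR1, IRF1 and MITF were thus lost with that test.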
